A study of Mus musculus with 8 samples.

Results

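The 5 genes S100a2, S100a3, S100a4, S100a5 and S100a6 lie side by side on mouse chromosome 3 and were examined as a single domain, 5 of 21887 protein-coding genes in the RefSeq table. They were chosen on the increase in the length covered by H3K27ac peaks around them after 4OHT, measured in the same 4 libraries that are described here. Their own change with treatment is therefore given as a description, with no test. The domain is the 5 gene intervals with 50 kb on either side (chr3:90510356-90664414, mm10, 154 kb). It holds 10 protein-coding genes, and all 10 belong to the S100 family.

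Acetylation of lysine 27 on histone H3 (H3K27ac) was profiled by ChIP-seq in E14tg2a, a mouse embryonic stem cell line of 129SV background. All cells stably carried cRAF-ErT2, a fusion of RAF kinase to a tamoxifen-sensitive receptor domain, so that 4-hydroxytamoxifen (4OHT) switches on ERK signalling, and all had been grown in serum, LIF and 2 uM of the GSK3 inhibitor Chir99021. For the last 24 h before treatment, both groups were in serum and LIF with 250 nM PD173074, which inhibits FGF receptors. One group was then left untreated (0 h) and the other received 250 nM 4OHT for 2 h, with clones a and b in each, so n = 2 libraries per group. The labels give no vehicle control and the files hold no measure of ERK activity, so an effect of 4OHT itself and one of ERK cannot be told apart.

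S100 proteins are small calcium sensors. Each subunit folds around a pair of EF-hand loops, calcium binding opens a hydrophobic face, and that face docks onto target proteins inside the cell, while several members also act outside it on receptors such as RAGE. Most mouse S100 genes sit in this cluster, next to the epidermal differentiation complex, and many are expressed in epithelial, connective or immune cells and little in pluripotent cells. H3K27ac marks active promoters and enhancers, so its peaks show where chromatin of a locus carries that mark and not how much RNA is made.

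The sequences just before the listed start sites show which starts the peaks reached. RefSeq (GRCm38.p6, the coordinates of mm10) listed 7 starts for 4 of the 5 genes, all on the plus strand, and no entry was found for S100a2. The 250 bases before the start are shown for 4 of the 7: S100a3 at chr3:90586702-90586951 and chr3:90588313-90588562, and S100a6 at chr3:90612644-90612893, which were wholly inside peaks of both treated libraries and outside every untreated peak, and S100a4 at chr3:90603520-90603769, which lay outside the peaks of all 4 libraries. The S100a3 stretches lie inside the RefSeq interval of that gene. Capitals mark a TATA box (TATAAA), the only searched motif found in these 4 stretches.
S100a3, start at 90586952: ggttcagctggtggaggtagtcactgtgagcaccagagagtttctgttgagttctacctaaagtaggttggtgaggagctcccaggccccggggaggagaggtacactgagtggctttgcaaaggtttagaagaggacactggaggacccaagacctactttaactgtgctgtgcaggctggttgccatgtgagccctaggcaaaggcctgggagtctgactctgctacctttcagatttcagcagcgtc
S100a3, start at 90588563: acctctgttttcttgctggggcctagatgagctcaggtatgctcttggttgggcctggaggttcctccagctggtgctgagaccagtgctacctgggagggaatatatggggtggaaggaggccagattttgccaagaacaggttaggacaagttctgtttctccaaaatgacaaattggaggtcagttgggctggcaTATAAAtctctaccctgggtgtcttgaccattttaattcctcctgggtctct
S100a6, start at 90612894: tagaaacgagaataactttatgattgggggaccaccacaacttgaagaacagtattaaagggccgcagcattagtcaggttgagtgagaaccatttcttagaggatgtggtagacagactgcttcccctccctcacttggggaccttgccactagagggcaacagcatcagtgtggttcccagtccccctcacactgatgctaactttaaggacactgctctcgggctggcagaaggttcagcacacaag
S100a4, start at 90603770: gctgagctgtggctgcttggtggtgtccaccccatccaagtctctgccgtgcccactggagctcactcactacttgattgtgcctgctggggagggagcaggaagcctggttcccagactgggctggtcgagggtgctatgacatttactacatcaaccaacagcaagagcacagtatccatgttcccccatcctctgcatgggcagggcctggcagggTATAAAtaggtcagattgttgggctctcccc

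Motifs were searched on both strands in those 250 bases for all 7 starts and for all 32851 promoters of the table. The AP-1 motif TGANTCA was in 0 of the 7 and in 6.75% of all promoters. The ETS motif CCGGAA was in 0 of the 7 (12% of all), the EGR motif GCGNGGGCG in 0 (4.70%), the CArG box of serum response factor in 0 (1.47%), the cyclic AMP response element TGACGTCA in 0 (1.55%), the E-box CACGTG in 0 (6.02%) and the TCF motif CTTTGAA in 0 (4.46%). TATAAA was in 2 of 7 (12.4% of all) and began 31 bases before the S100a4 start and 52 bases before the last of the S100a3 starts shown. The SP1 motif GGGCGG was in 1 of 7 (32.7% of all), before the S100a3 start at 90600214. None of the 3 matches overlapped another. GC content of the 7 stretches ranged from 46.0% to 57.2%, against a median of 52.4% over all promoters. A missing match says only that those letters are not in these windows.

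H3K27ac peaks spread over parts of S100a3 and S100a6 after 4OHT, and the rest of the domain held few. Peaks within the domain numbered 6 in untreated clone a, 6 in untreated clone b, 13 in treated clone a and 12 in treated clone b. Their covered length was 2.05 kb in untreated clone a and 2.60 kb in untreated clone b, and it was 11.3 kb in treated clone a and 13.3 kb in treated clone b. The treated libraries were both above both untreated ones, and the mean went from 2.33 ± 0.383 to 12.3 ± 1.45 kb (SD, n = 2 clones). On the log2(covered bp + 500) scale the change was 2.18, with 2.20 within clone a and 2.16 within clone b. This scale understates changes of short lengths, and the median change over all loci was 0.08.

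**Figure D1:**
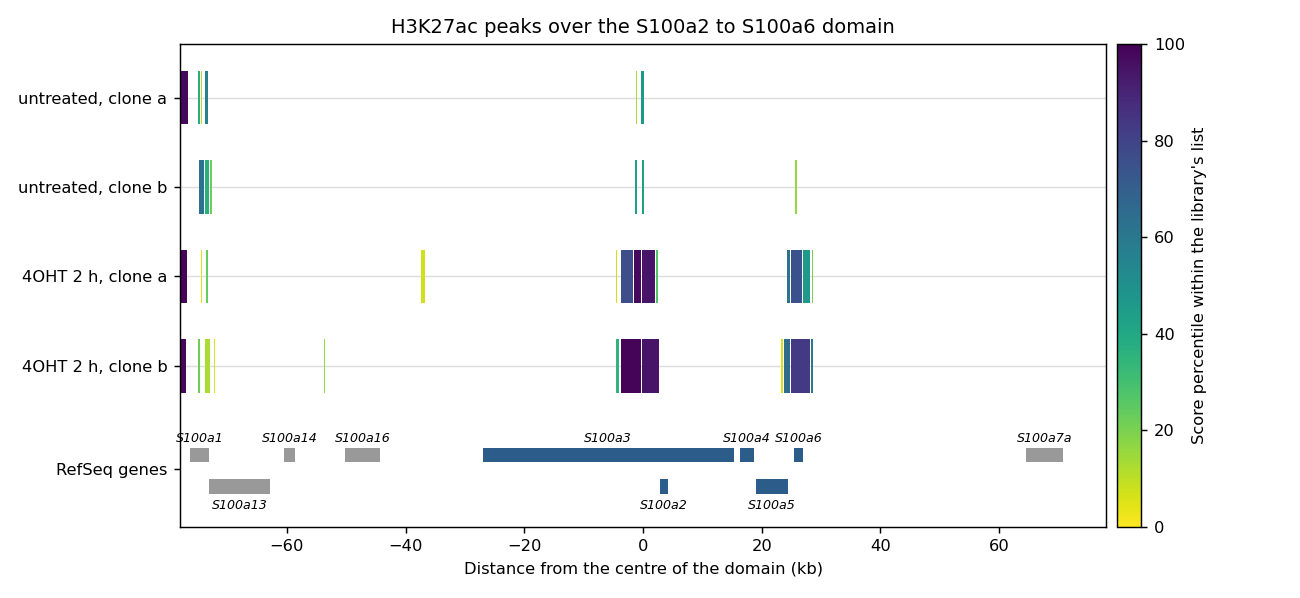
H3K27ac peaks of each library (rows) along the domain, by distance from its centre in kb, with colour for the percentile of the peak's score within its own list; gene intervals are below, members in blue and other S100 genes in grey. Peaks of both treated libraries fill a stretch of S100a3 and one around S100a6, where the untreated libraries have 2 or 3 narrow peaks each, and no peak lies on S100a4 or S100a2.

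Those peaks formed 13 union regions, each a merger of peaks from any library that overlapped by 1 bp or more. Of the 13, 3 were called in both treated and neither untreated library, 0 in the opposite pattern, 4 in all 4 libraries, 1 in 3 libraries and 5 in a single library, of which 4 were in a treated and 1 in an untreated library. Over the genome, 6.20% of 82792 union regions had the treated-only pattern, 6.26% had the opposite pattern and 30131 regions were called in all 4 libraries. The domain was chosen on these same peaks, so its counts beside those shares are a description and no test. The lack of a peak in a list is no proof that the mark was missing, because the files hold no read counts and depth is unknown. In bulk chromatin, more cells with the mark and more mark per cell cannot be told apart.

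S100a3, a cysteine-rich member best known from the hair shaft, held the longest region (chr3:90583715-90590154, 6440 bp). It was called in all 4 libraries and so counts as shared. Before treatment, peaks covered 621 bp of it in clone a and 484 bp in clone b, and after 4OHT 5869 bp in clone a and 6277 bp in clone b. That is 9.64% and 7.52% of the region before, and 91.1% and 97.5% after 4OHT. The treated values were both far above the untreated ones, with little spread between clones.

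The rank of this region within each list moved in the same direction. Its highest peak score stood at percentile 46.9 and 43.9 in the untreated lists, about the middle, and at 97.6 and 98.9 in the treated lists. Scores are the authors' own and are used here only as ranks within a list. Among 30131 regions called in all 4 libraries, this one ranked 5 by the bp it widened (5520.5 bp) and 2 by log2 change (2.65, against a median of 0.02). These ranks come from the contrast that chose the genes and describe it only.

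The untreated peaks in S100a3 lay mostly within the stretch that the treated peaks covered. In both untreated clones a pair of narrow peaks flanked the start at 90586952, with 762 bp between them in clone a and 925 bp in clone b, and the start itself fell between them, 131 and 329 bp from the nearest peak. In both treated libraries the start lay inside a peak. Of the untreated cover here, 528 of 621 bp in clone a and 484 of 484 bp in clone b fell within treated peaks of the same clone. The treated libraries shared a gap of 93 bp (chr3:90587091-90587183), from 139 to 231 bases after that start.

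RefSeq lists 4 starts for S100a3, and 3 of them (90584659, 90586952 and 90588563) were inside peaks of both treated libraries. The starts at 90584659 and 90588563 lay 1.04 to 1.46 kb from any untreated peak. The last, at 90600214, was 10.1 and 10.3 kb from a peak in treated cells and 12.7 kb in untreated cells. A further region 5′ of these (chr3:90582768-90583348) was treated-only, with 307 and 520 bp covered. Together the S100a3 stretch of both regions covered 0.621 and 0.484 kb in untreated and 6.18 and 6.80 kb in treated clones. The peaks of the treated clones overlapped there with a Jaccard index of 0.873 (shared over either, in bp).

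S100a6 encodes calcyclin, a growth-associated S100 protein that binds the Siah-linked adaptor CACYBP. Its region (chr3:90612325-90615555) covers the whole gene. It had 0 bp of peak in untreated clone a, 380 bp in untreated clone b, 2899 bp in treated clone a and 3231 bp in treated clone b. Both treated values exceeded both untreated ones, and the single untreated peak stood low in its list, at percentile 15.9, against 75.1 and 83.2 for the treated ones. The listed start of S100a6 was inside peaks of both treated libraries, 43 bp from the peak of untreated clone b and 25.4 kb from the nearest peak of untreated clone a.

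Smaller regions lay on either side of it. A treated-only region at the 3′ end of S100a5 (chr3:90611153-90612160) had 572 and 978 bp in treated clones a and b. Another, 1.30 kb beyond S100a6 (chr3:90615712-90616062), had 253 and 327 bp. With a 238 bp peak of treated clone b alone, the stretch from S100a5 to beyond S100a6 spanned 5.38 kb. Its cover was 0 and 0.380 kb in untreated and 3.72 and 4.77 kb in treated clones, and the peaks of the treated clones overlapped with a Jaccard index of 0.760. It showed weaker score ranks than the S100a3 stretch in both treated lists.

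S100a5, a high-affinity calcium binder of olfactory neurons, was reached only at its 3′ end. Peaks covered 0 bp of its interval in both untreated and 0.196 and 0.870 kb in treated clones a and b. Its listed start was 3.07 and 2.16 kb from the nearest treated peak.

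S100a4 and S100a2 carried no peak on the gene itself. S100a4 (metastasin, also used as a fibroblast marker under the name Fsp1) binds non-muscle myosin and is linked to cell motility. Its interval (chr3:90603770-90606045) had 0 bp covered in all 4 libraries, and its start was 7.82 and 6.92 kb from the nearest peak in treated clones a and b, against 16.3 and 9.17 kb in untreated ones. S100a2, a calcium sensor of epithelial nuclei in human tissue, lies inside the S100a3 interval (chr3:90590247-90591508) and also had 0 bp in all 4 libraries. The edge of the S100a3 stretch came to within 92 bp of it. Peaks of treated cells thus touched 3 of the 5 gene intervals.

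**Figure D2:**
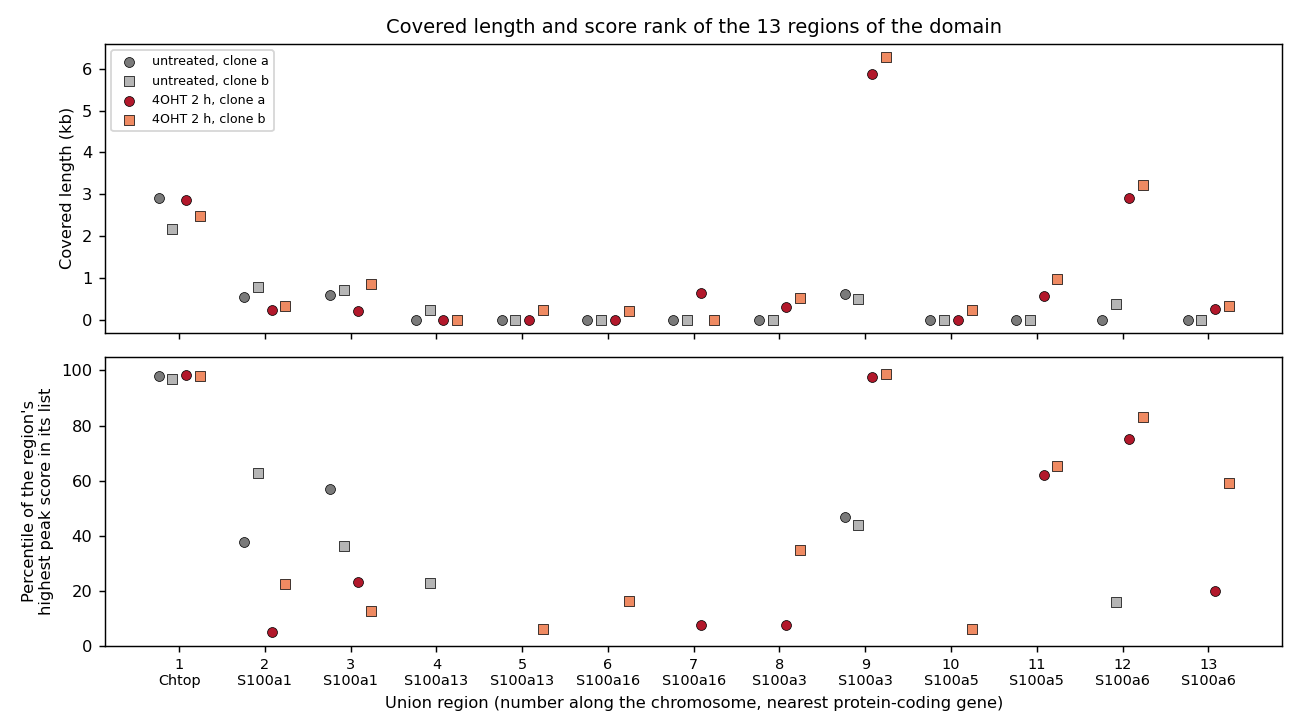
Covered length in kb (upper panel) and percentile of the highest peak score within its list (lower panel) for the 13 regions, numbered along the chromosome, with a point for each library and no percentile where there is no peak. Regions 9 (S100a3) and 12 (S100a6) go from at most 621 bp in untreated to at least 2899 bp in treated libraries, while region 1 at Chtop stays between 2164 and 2904 bp.

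The size of the change per gene depends on the window drawn around it. Within 50 kb of S100a4, peaks covered 0.621 and 0.864 kb in untreated and 9.90 and 11.6 kb in treated clones. S100a5 and S100a6 had exactly the same values, because the windows hold the same peaks. They are 1 observation and not 3. S100a2 differed only by a 649 bp peak of treated clone a near the small nuclear RNA gene Gm24593, with 10.6 and 11.6 kb in treated clones.

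S100a3 stood lower in the order although most of the acetylated length lies on it. Its RefSeq interval is long (42.4 kb), so its window reaches the peaks of Chtop and S100a1 at the proximal edge, which were present in all libraries. Covered length there was 2.05 and 2.60 kb untreated and 11.3 and 13.3 kb treated. The log2 change was 2.18, against 3.18 for S100a4, S100a5 and S100a6 and 3.22 for S100a2. Among 16049 loci these stood at rank 61, 4 (tied) and 2 by increase.

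The fit over all loci gives the background for the other loci below. In it, limma with Benjamini-Hochberg adjustment called 4.00% of all loci longer and 6.87% in either direction, and 38.2% with clone as a factor. The 5 genes are among the called loci in both, which is no test of them, since the same contrast chose them. The untreated mean of 4 of the 5 was under the minimum of 1000 bp, so that they entered the fit only through the treated libraries.

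**Figure D3:**
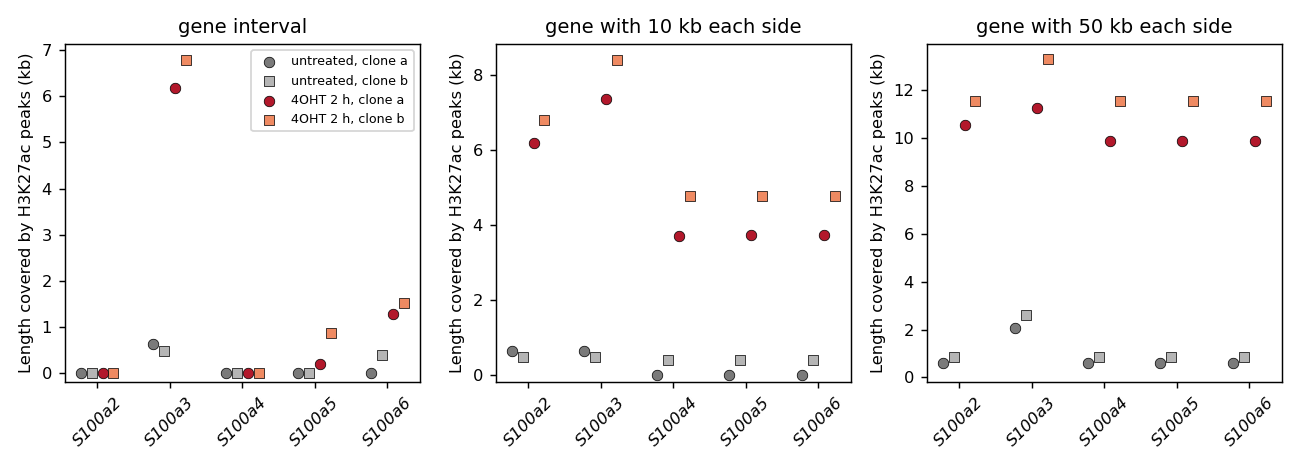
Length covered by H3K27ac peaks in kb for each gene (x axis) in its interval alone, with 10 kb and with 50 kb on each side, with a point for each library. On the intervals alone S100a2 and S100a4 are at 0 in all 4 libraries and S100a3 reaches 6.80 kb, whereas with 50 kb on each side all 5 genes show treated values of 9.90 kb or more because they share peaks.

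The difference between clones is balanced over treatment and was not used to choose the genes, so it was tested. That test is limited, because 4 of the 5 genes entered the fit only through the treated libraries, where they were high. Covered length within 50 kb of S100a4 was higher in clone b by 0.25 ± 0.14 (SE) on the log2 scale (limma adjusted p = 0.264), and S100a5 and S100a6 share that value. The difference was 0.21 ± 0.14 at S100a2 (limma adjusted p = 0.363) and 0.25 ± 0.11 at S100a3 (limma adjusted p = 0.168). It was in the same direction in both treatments at S100a4, where clone b exceeded clone a by 0.243 kb untreated and by 1.67 kb treated. The 5 genes share peaks and are not 5 observations. Their lowest unadjusted limma p for clone was 0.0536, at S100a3. None of the 5 passed after adjustment, while 14.9% of all loci did pass for clone. This does not show that the clones were alike here.

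Along the chromosome, in 25-kb bins, the stretch from 25 kb before to 50 kb after the centre of the domain had 0.621 and 0.864 kb covered in untreated and 9.90 and 11.6 kb in treated clones. On the distal side, from 50 to 250 kb, all 4 libraries had 0 kb. S100a8 and S100a9, the calprotectin genes of neutrophils, lie in that stretch. The next peak beyond the S100a6 stretch was 225 kb away in untreated clone a and 245 kb away in each of the other libraries.

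On the proximal side the chromatin was already acetylated. From 175 to 50 kb before the centre, over Npr1, Ilf2, Snapin and Chtop, peaks covered 23.4 and 20.5 kb in untreated and 26.6 and 23.9 kb in treated clones, which is 3.18 kb more after 4OHT in clone a and 3.46 kb more in clone b. The region at Chtop (chr3:90507761-90510667) had 2904 and 2164 bp untreated and 2860 and 2489 bp treated. At S100a1, a calcium sensor of heart muscle, the region chr3:90512436-90513361 had 541 and 782 bp untreated and 234 and 323 bp treated, lower in both clones. The region over the shared ends of S100a1 and S100a13, which helps release FGF1, went from 580 to 208 bp in clone a and from 706 to 864 bp in clone b. Beyond the S100a13 peaks, 67.4 kb up to the S100a3 stretch held 2 peaks, each in a single treated library (200 and 649 bp).

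**Figure D4:**
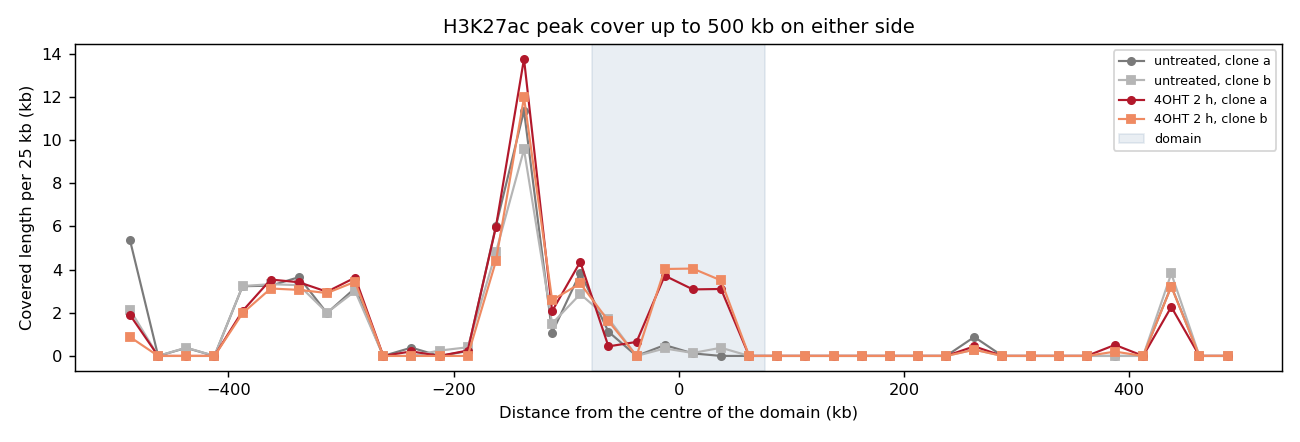
Covered length per 25 kb (y axis, kb) up to 500 kb on either side of the centre of the domain, shaded, with a line for each library. In the 3 bins from -25 to 50 kb the treated libraries lie between 3.08 and 4.05 kb and the untreated ones at 0.503 kb or less, while from 50 to 250 kb all 4 are at 0.

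Other S100 genes were then examined with the fit over all 16049 loci. Of 13 listed, 8 had enough cover to be tested. Among the 5 of these whose windows overlap the domain, 2 were among the loci called longer, as were 4.00% of all loci. They were S100a16 (5.34 ± 0.363 to 11.7 ± 0.106 kb, SD, n = 2 clones, log2 change 1.06) and S100a7a (0.190 ± 0.269 to 4.25 ± 0.743 kb, log2 change 2.83). S100a7a entered the fit only through the treated libraries. The S100a7a values are those of the S100a6 stretch itself, and the S100a16 window takes in the S100a3 stretch. Both therefore repeat the peaks that chose the domain, and no test is given for them. With 10 kb on either side both fell under the minimum length and were not in the fit. The starts of S100a16 were 3.47 kb or more from any peak, and that of S100a7a 38.2 kb or more. Within 50 kb, S100a1 and S100a13 had the same covered length in every library, so they are 1 observation and not 2. S100a1, S100a13 and S100a14 changed by 0.29, 0.29 and 0.14 (limma adjusted p = 0.194, 0.194 and 0.567), and with 10-kb windows S100a1 and S100a13 stood at -0.12 and -0.09. With 100-kb windows the 3 stood at 0.61, 0.67 and 0.69. Those windows take in the S100a3 stretch and at least part of the S100a6 stretch. These values thus also repeat the peaks that chose the domain, and no test is given for them.

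Family members away from the domain showed smaller changes. S100a10, the partner of annexin A2, had 9.95 and 11.2 kb untreated and 12.8 and 16.1 kb treated (log2 change 0.43 ± 0.16 SE, limma adjusted p = 0.153). S100a11, which binds annexin A1, had 6.65 and 7.13 kb untreated and 8.34 and 9.55 kb treated (0.35 ± 0.13 SE, limma adjusted p = 0.166). S100z on chromosome 13 had 3.55 and 5.23 kb untreated and 7.29 and 6.75 kb treated (0.64 ± 0.20 SE, limma adjusted p = 0.116). Treated values lay above untreated ones in all 3. The windows of S100a10 and S100a11 overlap, so the 3 loci are not 3 separate observations. By limma 0 of 3 passed, against 6.87% of all loci, and 3 had an unadjusted p under 0.05, against 27.8% of all loci. With clone as a factor all 3 passed (limma adjusted p = 0.00566, 0.0251 and 0.0150), against 38.2% of all loci. The change of S100a11 was 0.13 with 10-kb windows, that of S100a10 0.27 without treated clone b, and that of S100z 0.39 without untreated clone a. S100a7l2, S100b and S100g had at most 0.683 kb in any library and were not tested, nor were S100a8 and S100a9, at 0 kb in all libraries.

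The epidermal differentiation complex, the adjoining block of skin barrier genes, was little covered. Of 51 listed genes found in the table, 14 were at 0 kb in all 4 libraries and 12 could be tested. Of the 12, 5 had identical values from shared windows, which leaves 8 distinct loci with a median log2 change of -0.09 (-0.28 over the 12, and 0.08 over all loci). By limma 0 of 12 passed, against 6.87% of all loci. The count was also 0 at an unadjusted p under 0.05 (27.8% of all loci) and with clone as a factor (38.2%). So few loci cannot show a difference from those shares. Around Lor, which encodes loricrin of the cornified envelope, cover was 0.848 and 2.88 kb untreated and 1.32 and 1.27 kb treated (limma adjusted p = 0.763).

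Genes of proteins that bind or sense S100 proteins had 12 of 14 loci tested, with 1 longer and 0 shorter (6.87% of all loci were called) and a median log2 change of -0.12. The locus that passed was Anxa2, which encodes annexin A2, the partner of S100a10. It had 2.57 and 3.81 kb covered in untreated and 7.76 and 8.88 kb in treated clones (log2 change 1.28 ± 0.21 SE, limma adjusted p = 0.0351). The call was lost without untreated clone a, treated clone a or treated clone b (limma adjusted p = 0.0851, 0.0889 and 0.0894). It was also lost in the upper 50% of peaks by score (0.0665) and among the top 20000 (0.111), where the change was 2.02. The call was kept with 10-kb and 100-kb windows (limma adjusted p = 0.0404 and 0.0495). It was also kept with clone as a factor (limma adjusted p = 0.000428), which called 38.2% of all loci.

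Ager, which encodes the receptor RAGE, had 7.61 and 8.34 kb untreated and 15.2 and 12.1 kb treated (log2 change 0.73 ± 0.15 SE, limma adjusted p = 0.0538, and 0.00261 with clone as a factor). The change at Ager was 0.55 with 10-kb windows (limma adjusted p = 0.151) and 0.57 without treated clone a. With clone as a factor 5 of 12 partner loci were called (41.7%), near the 38.2% of all loci. Of these, Ager, Anxa2 and Bsg, a membrane glycoprotein that can act as an S100 receptor, were longer, and Trp53 and Myh9, whose product is the myosin bound by S100a4, were shorter. The log2 changes of Bsg, Trp53 and Myh9 were 0.25, -0.51 and -0.22. That of Myh9 was 0.02 without treated clone b, that of Bsg 0.16 without treated clone a, and that of Trp53 -0.07 with 10-kb and -0.10 with 100-kb windows. Tlr4 had 0 kb in all libraries.

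**Figure D5:**
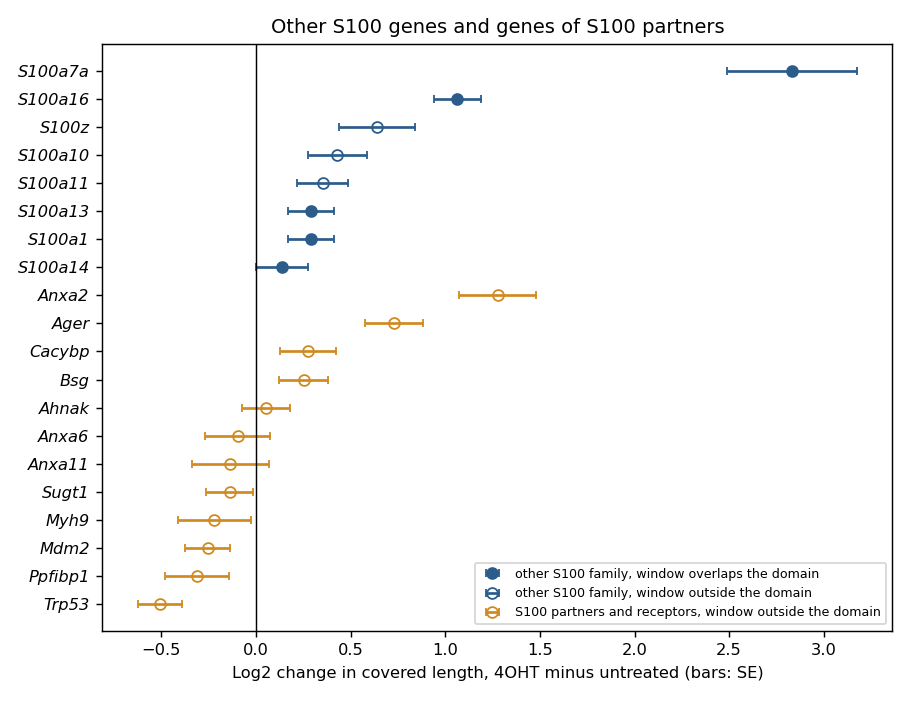
Log2 change in covered length (x axis, 4OHT minus untreated, bars are SE from limma) for tested S100 genes outside the 5 (blue, filled where the 50-kb window overlaps the domain) and for genes of S100 partners and receptors (orange). S100a7a and S100a16, whose windows take in peaks of the domain, lie furthest right among S100 genes at 2.83 and 1.06, and Anxa2 leads the partners at 1.28.

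Loci elsewhere with the most similar values to S100a4 were found by Euclidean distance over the 4 log2 values, leaving out genes within 500 kb of the domain. The closest 5 were Grina (distance 0.761), 2410004P03Rik (0.821), Pqlc3 (0.861), Pax8 (0.939) and Parp10 (0.967). Grina had 0.407 and 1.59 kb untreated and 8.04 and 10.3 kb treated. Grina and Parp10 share windows on chromosome 15, as do 2410004P03Rik and Pqlc3 on chromosome 12, so they stand for 3 places in the genome. Likeness over 4 libraries, of which treatment is the main difference, describes these values only.

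The labelled cell type was checked with marker genes, taking each gene with 10 kb on either side. Such a window can also hold peaks of neighbouring genes, so the cover need not belong to the marker itself. All 8 embryonic stem cell markers had peaks in all 4 libraries, with a summed length of 142.1 to 148.3 kb untreated and 148.3 to 155.3 kb treated. Cover was greater after 4OHT in both clones at Pou5f1, Esrrb and Zfp42. It was lower in both at Nanog, Klf4, Tfcp2l1 and Dppa5a, and the clones differed in direction at Sox2. The 7 fibroblast markers summed to 3.51 to 3.98 kb untreated and 5.15 to 7.71 kb treated. Of these, Col1a1 (2848 to 3930 bp) and Col1a2 (426 to 679 bp) had peaks in all 4 libraries, Dcn and Postn were at 0 in all 4, and Lum (358 bp) and Thy1 (730 bp) had peaks in treated clone b alone. Twist1 went from 0 bp in both untreated to 1662 and 2115 bp in treated clones. The 4 blood markers summed to 9.53 to 10.5 kb untreated and 15.4 to 16.2 kb treated, with Csf1r at 0 and Ptprc going from 224 and 0 bp to 2403 and 2591 bp. Most of the sum was Cd68, with 9872 and 9216 bp untreated and 13208 and 11832 bp treated. Itgam had 439 and 312 bp untreated and 621 and 1005 bp treated. The 5 keratinocyte markers stood at 2.86 to 3.17 and 2.98 to 3.67 kb, and the 4 primitive endoderm markers at 0.944 to 2.03 and 1.35 to 2.50 kb, with Pdgfra at 0. The part of other cell types in the S100a result was not tested.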

How the data were processed

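H3K27ac ChIP-seq peak lists of 4 libraries were used. Matching input libraries, 4 in number, were not used here. Bowtie2, bedtools and MACS2 were applied on mm10, per the submitters' processing notes, with no versions, thresholds or use of inputs given in the sources used here. Each list holds the peaks of a single library, with a score per peak deposited by the authors that has no stated scale. The lists hold 59170 to 63276 peaks covering 50.4 to 53.1 Mb, with median widths of 503 to 539 bp. Read depth is unknown, so no interval for counting error is given.

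Covered length per protein-coding gene of RefSeq GRCm38.p6 with 50 kb on either side was compared as log2(covered bp + 500) with limma 3.58.1 (R 4.3.3), with a trended prior, for loci with a mean of at least 1000 bp, at an adjusted p of 0.05. The method was tested on simulated data. Clone letters pair the treatments, since each is a clone, and clone a departed from the mean of its group alike in both treatments (correlation over loci 0.611). The fit with clone as a factor is given where it changes a call. Whether libraries came from separate cultures is not stated, so p-values measure the spread between these libraries. Named genes were the 5 members, other S100 genes, genes of the domain near peaks, list members past the threshold and the 5 closest loci. Ager, Bsg, Trp53, Myh9, Lor, Tlr4, the flanking genes and the single markers were named after their values were seen. Members and lists were chosen with earlier results of these data known.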

Additional observations from a re-analysis of the deposited data

Results flagged for a closer look

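Clones moved in opposite directions at 3 places near or related to the domain. Each clone has 1 library per treatment, so these differences were not tested. At the region over the ends of S100a1 and S100a13 (chr3:90513558-90514457), covered length went from 580 to 208 bp in clone a and went from 706 to 864 bp in clone b, a difference of 0.79 between the clones' log2 changes. At the Chtop region it went from 2904 to 2860 bp in clone a and from 2164 to 2489 bp in clone b, a difference of 0.18. Around S100a7l2 it went from 0.450 to 0.580 kb in clone a and from 0.409 to 0.407 kb in clone b, a difference of -0.19.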

How the results depend on the processing

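The domain's covered length was greater after 4OHT under every alternative run. Against 2.18, the log2 change was 2.89 in the upper 50% of peaks by score, 3.82 among the top 20000, 3.20 and 1.36 with windows of 10 and 100 kb, and 2.36 and 1.72 with pseudocounts of 100 and 2000 bp. With a library left out it was 2.04 to 2.32. With S100a3 taken from its first listed start, chosen after seeing the data, it was 3.22. For single genes, which share peaks, the change was positive in 14 of 14 alternatives, from 1.36 to 4.28. Leaving out the length filter or adding clone as a factor cannot alter that estimate. The genes were chosen for this increase in the same libraries, so the signs for genes and domain are no test of it. Gained regions numbered 0 rather than 3 when peaks within 1000 bp were merged and 5 when a peak had to cover 50% of the region. They were 3 to 7 with a library left out. Lost regions numbered 1 rather than 0 with 50% coverage, and 0 to 1 with a library left out.

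Loci called over the genome (1103) were 318 in the upper 50% by score, 0 among the top 20000 (2883 at an unadjusted p under 0.05), 671 with 10-kb windows and 6125 with clone as a replicate block. With a library left out they were 0 to 568: leaving out treated clone a gave 0 (3225 at an unadjusted p under 0.05), untreated clone a 5, treated clone b 103 (29.1% of them longer, against 58.2% with all libraries) and untreated clone b 568. The lone library is then assumed to vary like the other group. Other S100 loci called (2, both sharing peaks with the domain) were 0 among the top 20000 and 5 with the replicate block. Those 5 include S100a10 and S100a11, whose windows overlap. With 10-kb windows the count was 0, and neither of the 2 was in the fit. With 100-kb windows it was 7, where 1080 of 17993 loci were called. The windows of all 7 reach the S100a3 or S100a6 stretch, so these calls repeat the peaks that chose the domain. Partner loci called (1) were 5 of 12 with the block, which called 38.2% of all loci. Clone calls (2390) were 1047 with 10-kb windows. Directions turned at S100a1 (-0.12) and S100a13 (-0.09) with 10-kb windows, at S100a14 (-0.05) in the upper 50% by score and at Myh9 (0.02, and -0.46 to 0.02 over the libraries left out) without treated clone b. The cause was not tested.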
